A study of Arabidopsis thaliana with 12 samples.

Results

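FCS-like zinc finger (FLZ) proteins are small plant proteins that share 1 short zinc-binding stretch and bind the catalytic subunits of SnRK1. The 10 FLZ loci described here were listed by locus code, with earlier results of these data known, out of 28775 genes in the count tables: AT5G47060, AT4G17670, AT3G22550, AT2G44670, AT5G11460, AT1G78020, AT3G63210, AT5G65040, AT1G22160 and AT4G39795. SnRK1 is the plant energy sensor kinase, related to yeast SNF1 and animal AMPK, and it drives the switch to starvation metabolism in the dark. FLZ proteins are regarded as adaptors that bring other proteins to the kinase, and messages of several of them are known to follow sugar supply. The annotation gives a name to AT3G63210 (MARD1, mediator of ABA-regulated dormancy) and to AT5G65040 (IRM1, Increased Resistance to Myzus persicae). Both names come from phenotypes: MARD1 from seed dormancy under abscisic acid, IRM1 from resistance to an aphid.

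RNA sequencing was available for 12 libraries of whole Arabidopsis thaliana seedlings, 3 in each of 4 groups, all of ecotype Col-0 and 3 weeks old. The SnRK1-labelled line carries a knockout of snrk1-alpha-1 with an inducible knockdown of snrk1-alpha-2, and it and its own wild type received the additive written Est for 6 d, starting at 14 d of age. In the S1-labelled line bZIP1 and bZIP53 are knocked out, and bZIP2, bZIP11 and bZIP44 can be knocked down on induction. All 5 are S1-group bZIP transcription factors that act with SnRK1 in starvation. This line and its wild type grew 5 d further and then received Est for 1 d. Every group was taken after the night had been extended by 6 h, so no library shows the FLZ loci in the light, without Est or before the dark period. The sources used here do not give the promoter behind the knockdowns, the number of independent lines or the number of plants per library. They do not say either whether replicates are separate cultures, and p-values then measure only the spread between these libraries, which may be technical.

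The zinc finger stretch is what makes these loci a family. It was found by the spacing of its cysteines in the encoded protein: a cysteine, 2 residues, a cysteine, 15 to 22 residues, phenylalanine and cysteine, 3 residues and a cysteine. All 10 loci encode the pattern, against 72 of 27444 protein-coding nuclear genes (0.262%). Of these 72 genes, 55 lie outside the 10 loci and the 8 further FLZ loci described below. The pattern is therefore not particular to the family, and the 10 loci had been listed as FLZ genes beforehand. In each of the 10 the stretch is 28 codons (84 bases) long, is interrupted by an intron after base 53, and carries the same residue in all 10 loci at 12 of its 28 codon positions. Of these, positions 1, 4, 23, 24 and 28 were fixed by the search pattern itself. The stretches of 7 loci on which the results turn are printed 5′ to 3′ on the coding strand with the intron left out and the 4 cysteine codons of the pattern in capitals. A further cysteine codon of AT3G22550, which the pattern does not require, is in lower case. They were read from the RefSeq TAIR10.1 assembly, and the positions given for each are those of the first and last base in that assembly. The first 4 rose most in the SnRK1-labelled line, AT1G78020 and AT3G63210 fell there, and AT1G22160 is the closest relative of AT1G78020.
AT5G47060 (chr5:19117143-19117489, plus strand): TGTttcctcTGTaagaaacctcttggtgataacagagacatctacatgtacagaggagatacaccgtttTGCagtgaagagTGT
AT4G17670 (chr4:9834107-9834426, minus strand): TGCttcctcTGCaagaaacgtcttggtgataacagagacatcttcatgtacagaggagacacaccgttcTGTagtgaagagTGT
AT3G22550 (chr3:7991872-7992130, minus strand): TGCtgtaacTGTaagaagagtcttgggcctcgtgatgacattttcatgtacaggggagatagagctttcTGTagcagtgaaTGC
AT2G44670 (chr2:18425336-18425532, plus strand): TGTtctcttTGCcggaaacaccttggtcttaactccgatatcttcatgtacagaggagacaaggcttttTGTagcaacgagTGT
AT1G78020 (chr1:29339063-29339362, plus strand): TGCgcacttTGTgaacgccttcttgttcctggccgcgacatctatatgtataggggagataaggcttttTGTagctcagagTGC
AT3G63210 (chr3:23354058-23354237, minus strand): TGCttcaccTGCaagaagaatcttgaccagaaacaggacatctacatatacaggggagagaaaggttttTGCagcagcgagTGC
AT1G22160 (chr1:7823481-7823657, plus strand): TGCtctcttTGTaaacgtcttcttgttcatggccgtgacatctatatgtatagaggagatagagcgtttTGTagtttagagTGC

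AT5G47060 and AT4G17670 are the closest pair. Their stretches share 77 of 84 bases and 26 of 28 encoded residues, and their whole proteins are identical at 75.5% of the positions of the shorter one. AT1G22160 and AT1G78020 come next, with 72 shared bases, 23 shared residues and 63.9% identity over the whole protein. AT3G63210 and either AT5G65040 or AT4G39795 share the fewest encoded residues, 14 of 28. The proteins also differ in size, from 93 encoded residues for AT2G44670 to 344 for AT5G11460. No locus had counts identical with those of another, which by itself does not show that their reads were kept apart. The rule for reads that map to several places is not given, and stretches that match with a few differences were not searched. By exact sequence, 8 of the 10 loci shared no 50-base stretch of transcript with any other gene. The exceptions were AT3G63210, with 6.26% of its 50-base stretches in another gene, and AT5G11460, with 0.992%. Both overlap a gene on the opposite strand, as does AT5G47060. The search for shared stretches took in both strands, so such an overlap counts there. It was not separated from sequence repeated elsewhere. The overlap covers 11.2% of the exon bases of AT3G63210, 3.75% of those of AT5G11460 and 1.67% of those of AT5G47060, and without knowledge of the strand the reads there cannot be assigned.

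**Figure D1:**
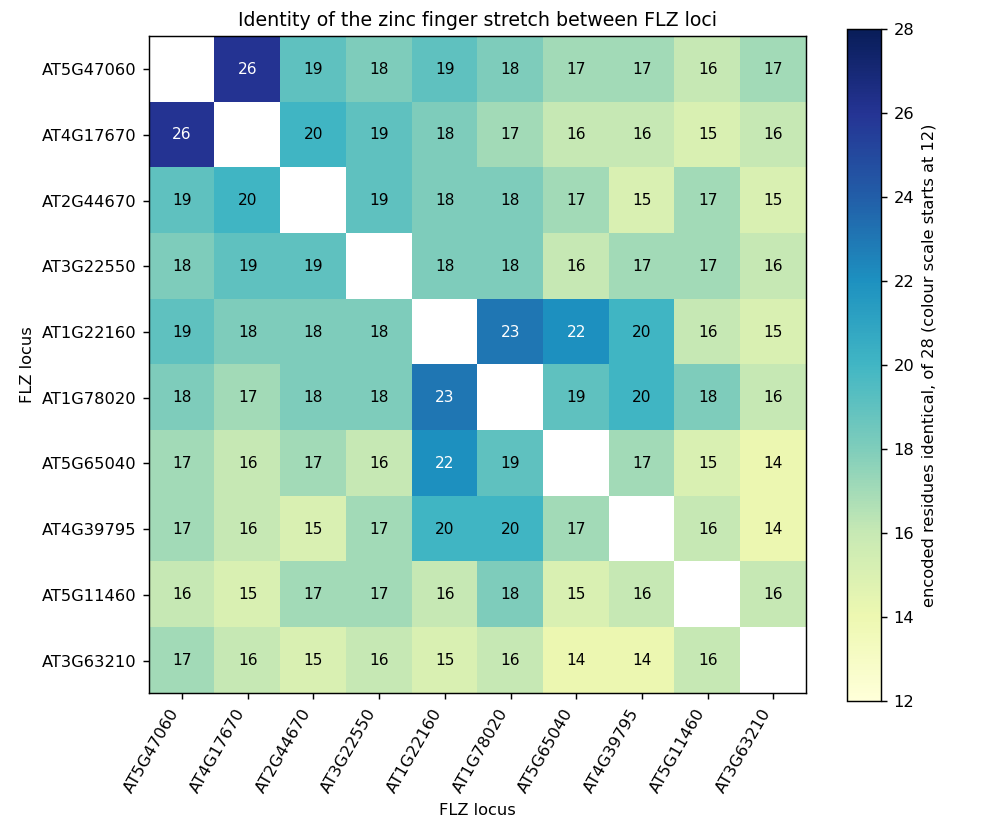
Number of encoded residues, of 28, that are the same in the zinc finger stretches of each pair of the 10 FLZ loci; both axes list the loci, and the colour scale starts at 12. AT5G47060 with AT4G17670 (26) and AT1G22160 with AT1G78020 (23) and AT5G65040 (22) are the closest pairs.

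Library totals ran between 3760168 and 9403687 counts, lowest in wild type replicate 3 with 6 d of Est. The 10 most abundant genes took 4.10 to 5.27% of the counts in the SnRK1-labelled line, against 10.8 to 12.3% in its wild type. Levels are given as normalised CPM, counts scaled to a common library size after TMM normalisation, which sets the bulk of genes equal between libraries. In the SnRK1-labelled line the median log2 fold change of all genes was 0.04 on this scale and 0.64 with library totals alone, so changes below are relative to the bulk of genes. The targeted genes did not all follow the labels. In the SnRK1-labelled line KIN11, the second catalytic subunit, lay between 28.3 and 43.4 normalised CPM, against 85.4 to 114 in its wild type, whereas KIN10, the first and the labelled knockout, still gave 60.2 to 65.6, against 78.5 to 99.6. In the S1-labelled line the labelled knockouts bZIP1 and bZIP53 were lower (log2 fold changes of -2.62 and -2.26 with edgeR), but both still gave reads. bZIP1 had 17.9 to 26.6 normalised CPM in the line, against 119 to 143 in its wild type. For bZIP53 these were 15.1 to 17.8, against 71.9 to 89.5. None of the 3 knockdown targets was called: the log2 fold change was 0.01 for bZIP2, -0.20 for bZIP11 (AT4G34590) and 0.85 for bZIP44 (AT1G75390), with adjusted p of 0.979, 0.872 and 0.322 from edgeR. Depth limits what can be seen for 2 of these targets. Over its 3 libraries the S1-labelled line had 25 counts of bZIP11, against 23 in its wild type, and 38 of bZIP44, against 17. Both lines are therefore called by their labels. Green leaf markers were abundant in every library, and they moved with the SnRK1 label: all 5 were lower in the SnRK1-labelled line, with a sum of 3688 to 7565 normalised CPM, against 33860 to 45120 in its wild type. The 8 root markers summed to 13.2 to 27.0 normalised CPM in the SnRK1-labelled line and to 17.6 to 22.4 in its wild type, and of the 4 tested 1 rose and 3 fell. The riser, AT1G08090, had 8.90 to 20.9 normalised CPM in the line and 0 counts in its wild type, and it reached the filter on low counts only through the line. The other 7 summed to 4.21 to 6.05 in the SnRK1-labelled line and to 17.6 to 22.4 in its wild type. The 3 flower markers summed to 0.150 to 0.878 in the SnRK1-labelled line and to 1.98 to 8.08 in its wild type, and the 3 seed storage markers to at most 0.289 in any library. What part such shifts have in the changes of the FLZ loci was not tested, and in whole seedlings fewer cells of a type and less RNA per cell cannot be told apart.

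In the SnRK1-labelled line the FLZ family was reordered. AT5G47060, AT4G17670, AT3G22550, AT2G44670 and AT5G11460 rose, and AT1G78020, AT3G63210 and AT5G65040 fell. AT1G22160 did not pass the test (edgeR quasi-likelihood, Benjamini-Hochberg adjusted over 18388 genes, called at an adjusted p under 0.05), and AT4G39795 had too few counts to be tested. That is 8 of 9 tested loci, but 68.4% of all tested genes were called in this comparison, 35.4% higher and 33.0% lower, so the count says little about the family. It also cannot stand for the 10 loci: AT5G47060, AT4G17670 and AT3G22550 reached the filter on low counts only through the SnRK1-labelled line. What follows is each locus with its own values. Over all tested genes, 12.1% were called and more than 4-fold higher, and 3.80% were called and more than 4-fold lower. For AT5G47060, AT4G17670 and AT3G22550 the first share is no yardstick. A locus that reaches the filter only through the line is tested because it is high there.

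The closest pair, AT5G47060 and AT4G17670, were nearly silent in the wild type and clearly expressed in the line. AT5G47060 had 12.7, 22.0 and 20.6 normalised CPM in the SnRK1-labelled line, against 0.643, 0.165 and 0 in its wild type. In raw reads these are 101, 244 and 137 counts in the line, against 5, 1 and 0 in the wild type. Every library of the line stood far above every wild-type library, and the ratio of the summed normalised counts was 54.1, with a 95% interval of 24.7 to 148 that covers counting error only. edgeR gave a log2 fold change of 5.67 ± 0.44 (SE, n = 3 each, adjusted p = 8.47e-09), which became 7.22 without wild type replicate 1, the library with 5 of the 6 wild-type counts. AT4G17670 had 8.40, 14.1 and 8.56 normalised CPM in the line, against 0.257, 0.494 and 0 in the wild type. Here too the groups lay far apart, with 280 counts in the line and 5 in the wild type (ratio 37.7, interval 16.0 to 117). Its log2 fold change was 5.10 ± 0.46 (SE, n = 3 each, edgeR, adjusted p = 5.16e-08), and 5.74 without wild type replicate 2.

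AT3G22550, a larger member of 267 encoded residues, was the most even of the risers. It had 12.0, 13.0 and 12.5 normalised CPM in the SnRK1-labelled line, against 0.772, 0.658 and 0.577 in its wild type. The 3 libraries of the line agree closely and none of the wild type comes near them. The ratio of summed counts was 18.1 (323 against 12 counts, interval 10.2 to 35.5), and the log2 fold change was 4.14 ± 0.32 (SE, n = 3 each, edgeR, adjusted p = 1.01e-08). The groups did not overlap for these 3 loci, which was so for 70.9% of all tested genes.

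AT2G44670, the shortest member, differed from those 3 in being well expressed in the wild type too. It had 102, 165 and 152 normalised CPM in the SnRK1-labelled line, against 28.7, 33.1 and 39.0 in its wild type. Replicate 1 was the lowest of the line and still lay above the highest wild-type library. The log2 fold change was 2.08 ± 0.18 (SE, n = 3 each, edgeR, adjusted p = 3.98e-08).

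AT5G11460, the longest member, rose less and less evenly. It had 3.13, 6.14 and 4.96 normalised CPM in the line, against 2.06, 3.46 and 0.289 in its wild type. The groups overlapped, since wild type replicate 2 exceeded replicate 1 of the line. The value of 0.289 is 1 count in the smallest library, where the share of the other 2 wild-type libraries would give 9.26 counts. The log2 fold change was 1.16 ± 0.43 (SE, n = 3 each, edgeR, adjusted p = 0.0253), and the call was lost without wild type replicate 1 (adjusted p = 0.0808) or replicate 3 (0.81, adjusted p = 0.0787) and without replicate 2 of the line (adjusted p = 0.126).

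AT1G78020 moved the other way. It was the most abundant FLZ message of the wild type and had 25.5, 24.4 and 36.5 normalised CPM in the SnRK1-labelled line, against 121, 120 and 115 in its wild type. The wild-type libraries were nearly equal and all lay above 3 times the highest library of the line. The log2 fold change was -2.05 ± 0.15 (SE, n = 3 each, edgeR, adjusted p = 3.44e-09). Its closest relative, AT1G22160, had 1.88, 1.90 and 2.25 normalised CPM in the line, against 2.57, 3.13 and 3.17 in the wild type. These groups did not overlap either, but at 51 and 50 raw counts the difference did not pass the test (log2 fold change -0.54, 95% interval -1.32 to 0.24, edgeR, adjusted p = 0.164). With library totals alone it was 0.06 (adjusted p = 0.879).

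AT3G63210 (MARD1) fell slightly, with 20.7, 20.1 and 24.0 normalised CPM in the SnRK1-labelled line, against 29.7, 31.6 and 34.9 in its wild type. The groups did not overlap, and the log2 fold change was -0.56 ± 0.13 (SE, n = 3 each, edgeR, adjusted p = 0.00128). This call depends on the scaling, since library totals alone gave 0.03 (adjusted p = 0.85). AT5G65040 (IRM1) was scarce, with 1, 9 and 5 raw counts in the line, against 12, 14 and 1 in the wild type. In normalised CPM that is 0.125, 0.812 and 0.751 in the line, against 1.54, 2.30 and 0.289 in the wild type, and the groups overlapped because of wild type replicate 3. The log2 fold change was -1.37 ± 0.55 (SE, n = 3 each, edgeR, adjusted p = 0.0349), and the call was lost with DESeq2 (adjusted p = 0.0548), with limma-voom (adjusted p = 0.0643) and without replicate 1 of the line (-0.94, adjusted p = 0.122), wild type replicate 1 (-1.36, adjusted p = 0.087) or wild type replicate 2 (-0.93, adjusted p = 0.224).

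AT4G39795 was at the edge of detection, with 26 counts over all 12 libraries. It had 1, 2 and 1 counts in the SnRK1-labelled line, against 5, 3 and 2 in its wild type, and 3, 0 and 0 in the S1-labelled line, against 3, 3 and 3 in its wild type. The ratio of summed normalised counts was 0.269 in the SnRK1-labelled line, with a counting interval of 0.0617 to 0.934. When genes of every level were fitted its log2 fold change was -1.78 ± 0.86 there (SE, n = 3 each, edgeR, adjusted p = 0.0824) and -1.81 ± 0.94 in the S1-labelled line (adjusted p = 0.422).

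**Figure D2:**
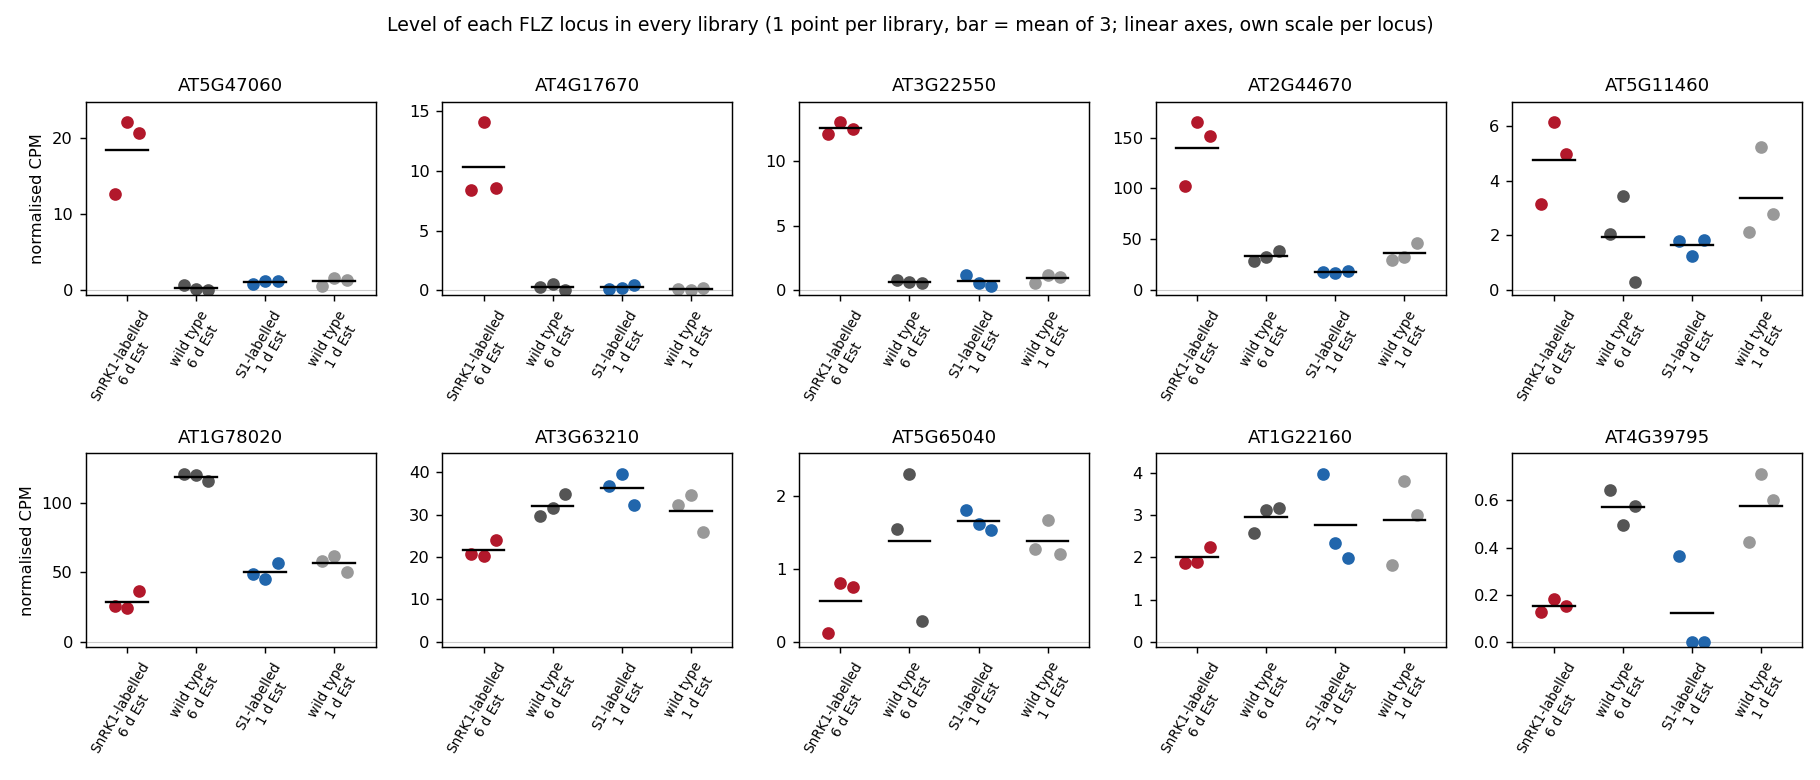
Normalised CPM of each of the 10 FLZ loci in all 12 libraries (1 point per library, bar at the mean of 3; linear axis with its own scale per locus). AT5G47060, AT4G17670 and AT3G22550 are at 8.40 CPM or more in the SnRK1-labelled line and at 1.66 CPM or less in the other 9 libraries.

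The leading locus of the family differed between the SnRK1-labelled line and its wild type. Whether the total differed depends on the scaling. The 10 loci summed to 239 ± 45.2 normalised CPM in the SnRK1-labelled line and to 192 ± 4.08 in its wild type (SD, n = 3 each), and replicate 1 of the line, at 187, lay below all 3 wild-type sums. With library totals alone, a scaling of this sum added after seeing the data, the sums were 228, 369 and 344 CPM in the line, against 155, 165 and 179 in the wild type, with no overlap. The shares of the family's counts do not depend on the scaling. AT2G44670 took 58.1 ± 3.46% of the family's counts in the line, against 17.4 ± 2.44% in its wild type. AT1G78020 took 12.2 ± 2.70% in the line, against 61.7 ± 2.50% in the wild type. The ranges of both shares were far apart. AT5G47060, AT3G22550 and AT4G17670 took 7.62%, 5.35% and 4.34% of the family's counts in the line, against 0.142%, 0.349% and 0.130% in the wild type. The sum was 112 ± 3.05 in the S1-labelled line, against 134 ± 8.10 in its wild type (SD, n = 3 each), and AT1G78020 led in both, with 44.5 ± 4.26% in the line and 42.3 ± 3.94% in its wild type.

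**Figure D3:**
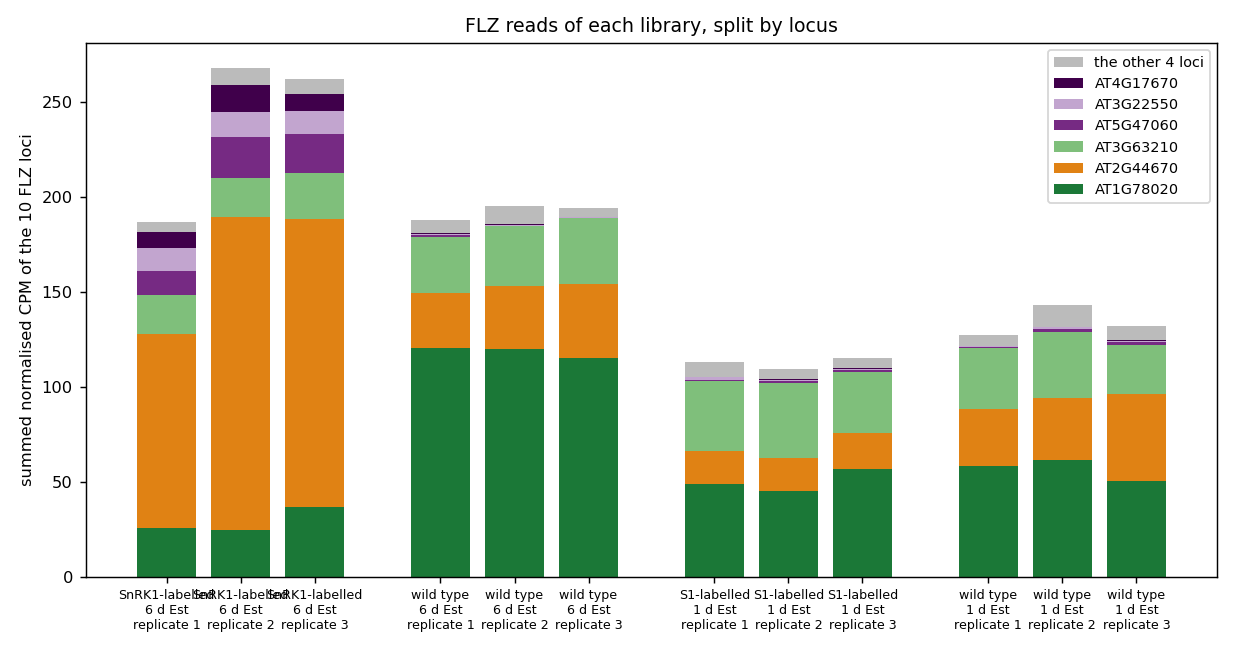
Summed normalised CPM of the 10 FLZ loci in each library, with the colours giving the part of each locus. In the 3 libraries of the SnRK1-labelled line AT2G44670 is the largest part, and in the other 9 libraries AT1G78020 is.

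Levels of different loci were compared per kilobase of the longest annotated transcript. In the SnRK1-labelled line AT2G44670 led with 155.7 normalised CPM per kb, followed by AT1G78020 with 28.35 and AT5G47060 with 15.47. AT3G63210 (11.56) and AT4G17670 (9.134) came next, and the ranges of neighbours in that run from AT5G47060 to AT4G17670 overlapped. AT3G22550 followed with 6.722 per kb, below the range of AT4G17670, and then AT5G11460 (2.692) and AT1G22160 (2.472), which overlapped, and AT5G65040 (0.7038) and AT4G39795 (0.2314), which overlapped too. In the wild type of that line AT1G78020 led with 116.8 per kb, then AT2G44670 with 37.39, AT3G63210 with 17.15 and AT1G22160 with 3.639, with no overlap between these 4. Below them lay AT5G65040 (1.724), AT5G11460 (1.098) and AT4G39795 (0.8697), with overlapping neighbours, and AT3G22550, AT5G47060 and AT4G17670 at the foot with 0.3598, 0.2261 and 0.221, again overlapping. In the S1-labelled line the order began with AT1G78020 (49.4 per kb), AT2G44670 (19.9) and AT3G63210 (19.36), where the last pair overlapped. In its wild type it began with AT1G78020 (55.83), AT2G44670 (40.23) and AT3G63210 (16.54), where the first pair overlapped. Every other locus of these 2 groups averaged at most 3.539 per kb, and AT4G17670 or AT4G39795 was lowest.

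A single FLZ locus fell in the S1-labelled line. Of the 9 tested loci AT2G44670 was called, in the lower direction, where 2.58% of all tested genes were called with 1.63% higher and 0.952% lower. It had 17.6, 17.3 and 18.7 normalised CPM in the S1-labelled line, against 29.8, 32.6 and 46.0 in its wild type. The libraries of the line were nearly equal and all lay below the wild type, a separation that 23.6% of tested genes showed. The log2 fold change was -1.01 ± 0.20 (SE, n = 3 each, edgeR, adjusted p = 0.0117), and the call was lost without wild type replicate 3 (-0.80, adjusted p = 0.0785) or replicate 2 of the line (-0.97, adjusted p = 0.0678). The same locus thus lay on opposite sides of its wild type in the 2 lines.

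The other 8 tested loci were not called in the S1-labelled line. AT5G11460 had 1.81, 1.26 and 1.84 normalised CPM in the line, against 2.11, 5.23 and 2.80 in its wild type. Its groups did not overlap, but the log2 fold change of -0.95 had a 95% interval of -2.08 to 0.18 (edgeR, adjusted p = 0.357). AT1G78020 and AT3G63210, which are well covered, had narrow intervals around small differences: -0.51 to 0.16 for AT1G78020 and -0.08 to 0.53 for AT3G63210, on the log2 scale. AT1G78020 had 48.6, 45.0 and 56.8 normalised CPM in the line, against 58.2, 61.6 and 50.2 in its wild type. AT3G63210 had 36.7, 39.6 and 32.3 in the line, against 32.4, 34.7 and 25.8 in its wild type, and both pairs of groups overlapped. For AT5G47060, AT4G17670 and AT3G22550 the depth limits what can be seen. They had 22, 5 and 15 counts in all 3 libraries of the line, against 18, 2 and 14 in its wild type, and the interval of AT4G17670 ran from -1.61 to 3.42. AT5G65040 and AT1G22160 had intervals of -0.85 to 1.43 and of -0.73 to 0.81.

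**Figure D4:**
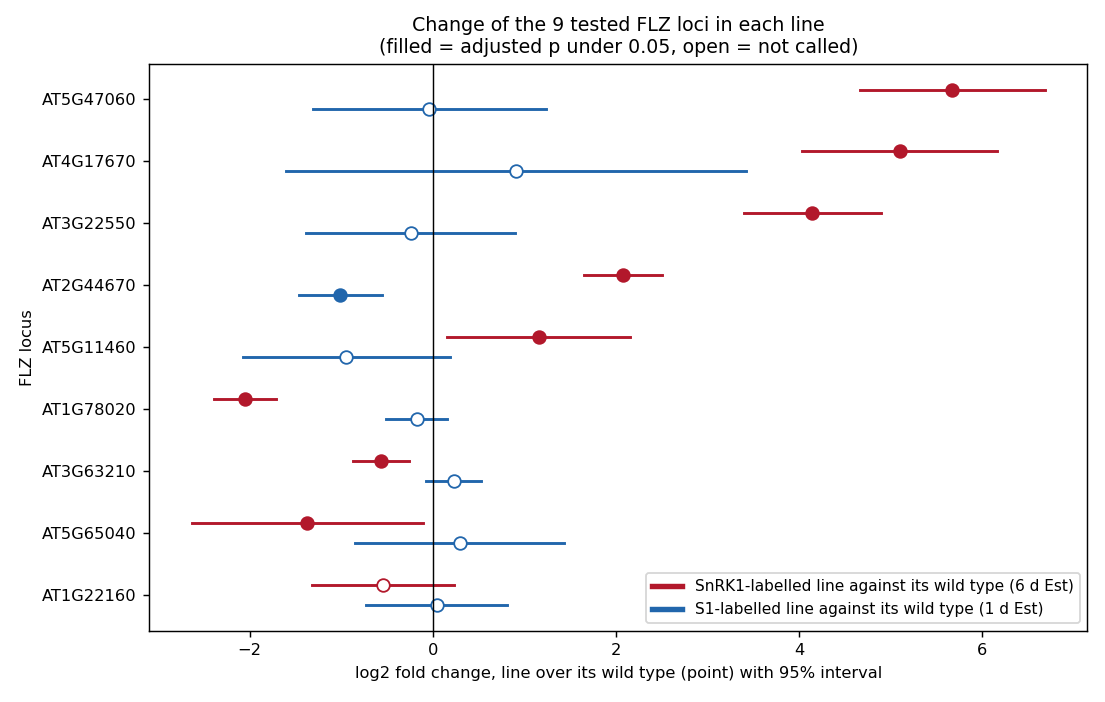
log2 fold change (horizontal axis) of the 9 tested FLZ loci in the SnRK1-labelled and the S1-labelled line, each over its own wild type, with 95% intervals from the standard error with 8 degrees of freedom; filled points passed an adjusted p of 0.05. The SnRK1-labelled line has filled points on both sides of 0, from -2.05 to 5.67, and the S1-labelled line has 1, AT2G44670 at -1.01.

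The difference between the 2 responses was tested directly, as the response in the SnRK1-labelled line minus the response in the S1-labelled line. It was called for 7 of the 9 tested loci, 5 higher and 2 lower, where 54.5% of all tested genes were called, 27.2% higher and 27.3% lower. Of the 5 higher, AT5G47060, AT4G17670 and AT3G22550 were tested only because of their counts in the SnRK1-labelled line, so this count too does not stand for the family. AT2G44670 had a difference of 3.08 ± 0.27 on the log2 scale (SE, n = 3 in each of 4 groups, edgeR, adjusted p = 2.39e-07). The 2 responses it joins have opposite signs, 2.08 in the SnRK1-labelled line and -1.01 in the S1-labelled line. AT5G11460 also had responses of opposite sign, 1.16 and -0.95, though the second was not called, and its difference was 2.10 ± 0.65 (edgeR, adjusted p = 0.0122, but 0.0509 without replicate 2 of the wild type with 1 d of Est). For AT5G47060 and AT3G22550 the differences were 5.72 ± 0.82 and 4.38 ± 0.65 (edgeR, adjusted p = 2.46e-05 and 3.48e-05). That of AT4G17670 was 4.19 ± 1.70 (edgeR, adjusted p = 0.046) and rests on 12 counts in the 9 libraries outside the SnRK1-labelled line. Its call was lost without any 1 of 6 libraries, all outside that line (adjusted p = 0.058 to 0.194). AT1G78020 had a difference of -1.88 ± 0.20 and AT3G63210 of -0.79 ± 0.19 (edgeR, adjusted p = 1.90e-06 and 0.00199). With library totals alone the call for AT3G63210 was lost (-0.32, adjusted p = 0.219). Each line has its own genotype and its own time on Est, and these cannot be told apart in such a difference.

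The 2 wild types, which differ in their treatment schedule, were compared with each other. AT1G78020 was the 1 tested FLZ locus called between them, where 12.1% of all tested genes were called, 6.17% higher and 5.94% lower. It had 121, 120 and 115 normalised CPM after 6 d of Est, against 58.2, 61.6 and 50.2 after 1 d, a log2 fold change of 1.07 ± 0.14 (SE, n = 3 each, edgeR, adjusted p = 2.79e-04). The 2 groups were far apart, and groups did not overlap for 34.0% of tested genes. Age at harvest and the extended night were the same in both, and the length of Est treatment and the time of transfer to it were not. Tissue markers differed too: the 8 root markers summed to 17.6 to 22.4 normalised CPM after 6 d, against 4.92 to 14.4 after 1 d. Of 4 tested root markers 2 were called higher after 6 d, as was the 1 tested flower marker, and 0 of the 5 green leaf markers were called. What part this has in the difference of AT1G78020 was not tested. For AT1G78020 the wild type with 1 d of Est lay between the SnRK1-labelled line and the wild type of that line. AT5G47060 had 0.643, 0.165 and 0 normalised CPM with 6 d of Est, against 0.563, 1.66 and 1.40 with 1 d. These overlapped, and the log2 fold change of -1.65 was not called (95% interval -3.32 to 0.02, edgeR, adjusted p = 0.147). AT2G44670 and AT3G63210 had intervals of -0.56 to 0.32 and of -0.27 to 0.35.

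A further 8 FLZ loci lie outside the 10, of which 7 encode the same cysteine pattern and 7 had enough counts to be tested. In the SnRK1-labelled line AT5G20700 and AT2G25690 rose, with log2 fold changes of 1.56 ± 0.20 and 1.23 ± 0.32, and AT1G79970 and AT1G74940 fell, with -1.0 ± 0.12 and -0.97 ± 0.17 (SE, n = 3 each, edgeR, adjusted p = 3.62e-06, 0.00276, 1.14e-06 and 7.52e-05). AT5G20700 had 109, 156 and 117 normalised CPM in the line, against 36.2, 50.2 and 44.1 in its wild type. These 4 calls in 7 stand against 68.4% of all tested genes called. With library totals alone 4 of the 7 rose and 1 fell, where 56.9% of all tested genes were called higher and 16.0% lower, and AT1G74940 was not called (-0.38, adjusted p = 0.0845). Neither count sets these loci apart from all genes. In the S1-labelled line edgeR called 0 of the 7, with 1 at an unadjusted p under 0.05, and DESeq2 called 0, limma-voom 0 and library totals alone 1, higher, where 2.58% of all tested genes were called by edgeR with TMM and 3.03% were called higher with library totals. AT1G53885 and AT1G53903 have the same transcript sequence, so how their reads were split is uncertain.

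The kinase complex that FLZ proteins bind was described by lists, whose counts stand against 35.4% of all tested genes called higher and 33.0% lower in the SnRK1-labelled line, and against 56.9% and 16.0% with library totals alone. Among the SnRK1 subunits and activating kinases 4 of 9 tested genes fell in the SnRK1-labelled line and none rose, with a median log2 fold change of -0.27, against 0.04 for all genes, and with library totals alone 4 rose, 3 fell and the median was 0.34. The 4 that fell were KIN10 (-0.50, but 0.10 with library totals alone), KIN11 (-1.58), the beta subunit AT5G21170 (-2.22) and the gamma-type subunit AT3G48530 (-1.87). Of the TOR complex and its S6 kinases, which SnRK1 opposes, 3 of 6 tested genes fell and 1, AT3G08720, rose, with a median of -0.36. With library totals alone 1 fell and 2 rose. Marker genes of darkness and SnRK1 activity fell almost together: 14 of 16 were lower and 1 higher, with a median log2 fold change of -2.10, against 0.04 for all genes. DIN6/ASN1 (AT3G47340), the asparagine synthetase that serves as a standard SnRK1 marker, had a log2 fold change of -2.89. AT1G78020, with -2.05, lay close to the median of these markers, and the median of the 5 green leaf markers was similar (-2.40). The 5 FLZ loci that rose had the opposite sign, as did AT3G49620 (5.13), the 1 marker called higher. In the S1-labelled line 1 SnRK1 subunit, KIN11, was lower, and of the 16 markers 2 were lower and 1 higher.

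For each tested FLZ locus the gene outside the family with the nearest profile was found, as the smallest root mean square difference of log2 normalised CPM, each centred on its own mean over the 12 libraries, among 13873 genes of at least 5 CPM on average. AT3G63210 was nearest to AT3G07760, a sterile alpha motif domain protein (0.10), and AT1G78020 to AT2G34590, annotated in the transketolase family (0.156). AT2G34590 averaged 135 normalised CPM in the SnRK1-labelled line and 522 in its wild type, with 267 in the S1-labelled line and 277 in its wild type. The 4 groups stand in the same order as for AT1G78020, which is no separate result, since the gene was picked for its near profile in these libraries. AT3G22550 was nearest to GH9C2 (AT1G64390), a glycosyl hydrolase (0.169), and AT2G44670 to AT5G50460, annotated as a sec61-gamma type subunit of protein transport (0.249). AT5G50460 averaged 62.8 normalised CPM in the SnRK1-labelled line and 13.0 in its wild type, with 8.56 in the S1-labelled line and 13.3 in its wild type. AT4G17670 was nearest to the heme oxygenase gene HO4 (AT1G58300, 0.323), and AT5G47060 to AT3G48080, an alpha/beta hydrolase (0.501). AT3G48080 shares 18.9% of its 50-base stretches with another gene on either strand, and it overlaps AT3G48070 on the opposite strand. The distances of AT5G65040 and AT5G11460 to their nearest genes, TAF7 (AT1G55300) and AT5G12050, were 0.441 and 0.45, and that of AT1G22160 to AT1G04230 was 0.201. Within the family the nearest pair was AT3G63210 with AT1G22160 (0.316). These distances depend on how much a locus varies: over the whole pool the median distance was 0.442 for AT3G63210 and 0.488 for AT1G22160, against 2.02 for AT5G47060 and for AT4G17670.

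The 250 bases before each annotated gene start were searched on both strands for 7 short motifs known from plant promoters. None of the 10 windows held the G-box CACGTG (6.49% of 27443 windows of all protein-coding genes did), the element ACTCAT bound by S1 bZIPs (12.3%), ACGTGG (8.23%), GATAAG (12.3%) or the W-box core TTGACC (12.2%). ACGTCA stood in 1 window, that of AT1G22160 (7.69% of all windows). AAATATCT, the core of the evening element of clock genes, stood in 2, those of AT4G17670 and AT4G39795 (4.79% of all windows). These are matches of letters in a short window and say nothing of binding.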

How the data were processed

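Raw counts per gene were deposited by the authors, with a file for each of the 12 libraries. Per the labels' protocols, 5 µg of RNA went into each library, made with a NEBNext mRNA kit. The submitters' processing notes list FastQC, Bowtie (0.12.8), SAMtools (0.1.18) and TAIR10 without their roles. The counter, the strand and the rule for reads that map to several places are not given in these sources. Library columns left unmatched to a sample numbered 0.

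The 10 loci, the comparison lists and the tests were chosen with earlier results of these data known, and all members were named. Counts were tested with edgeR 4.0.16 (R 4.3.3): filterByExpr with a minimum count of 10 kept 18388 genes (about 1.5 CPM in 3 libraries), TMM scaling, and 1 quasi-likelihood fit of all 12 libraries with group as the term. The common biological coefficient of variation was 13.2%. Contrasts were each line against its wild type, the difference between both responses, and 6 d against 1 d of Est in wild type. Standard errors came from the F statistic. Intervals of log2 fold changes use 8 degrees of freedom and may disagree with the test. Intervals of count ratios are exact and cover counting error only. The fit was also run on simulated counts in which few genes changed and every gene had the same spread. In the SnRK1 comparison most tested genes were called, so that run does not check the fit there.

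As alternatives, scaling used relative log expression or library totals alone, and other fits were DESeq2 1.42.0, limma-voom (limma 3.58.1), 2 other filters, only the groups compared, a replicate block and each library left out. Between replicates of 1 group the chi-square per gene ran from 2.68 to 18.1, above counting noise, so none was taken as a repeat deposit of another. This does not show separate cultures. Sequences, products and overlaps come from the RefSeq annotation of TAIR10.1. It bears another release name than the TAIR10 of the processing notes, and coordinates refer to TAIR10.1. Protein identity was computed from translated coding sequences. Python 3.11.15 with matplotlib 3.10.9 drew the figures.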

Additional observations from a re-analysis of the deposited data

Results flagged for a closer look

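For 7 FLZ loci the response in the SnRK1-labelled line differed from the response in the S1-labelled line by the direct test of that difference in edgeR. On the log2 scale, with adjusted p from edgeR, AT5G47060 differed by 5.72, AT3G22550 by 4.38, AT4G17670 by 4.19, AT2G44670 by 3.08, AT5G11460 by 2.10, AT3G63210 by -0.79 and AT1G78020 by -1.88. A difference of this kind was called for 54.5% of all tested genes. AT5G47060, AT3G22550 and AT4G17670 were tested only because of their counts in the SnRK1-labelled line, so the 7 do not stand for the family. The sign of the response turned between the lines for AT2G44670, where both responses were called. The difference of AT4G17670 (adjusted p = 0.046) lost its call without 1 library in 6 of 12 cases, namely replicates 1 and 3 of the wild type with 6 d of Est, replicates 1 and 3 of the wild type with 1 d, and replicates 1 and 2 of the S1-labelled line, with adjusted p between 0.058 and 0.194 in these. That of AT5G11460 lost it without replicate 2 of the wild type with 1 d of Est (1.68, adjusted p = 0.0509), and that of AT3G63210 with library totals alone (-0.32, adjusted p = 0.219). Without replicate 1 of the wild type with 6 d of Est the difference of AT5G47060 was 7.26, and without replicate 1 of the S1-labelled line that of AT3G22550 was 5.16. AT5G65040, at -1.66, was not called (adjusted p = 0.0659) and was called without replicate 3 of the wild type with 6 d of Est (-1.99, adjusted p = 0.0215) or without replicate 2 of the SnRK1-labelled line (-2.16, adjusted p = 0.0435). What part the different times on Est have in these differences cannot be told apart from the genotype.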

How the results depend on the processing

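With library totals alone the median of all genes in the SnRK1-labelled line moved to 0.64, with 10465 genes called higher and 2938 lower, against 6514 and 6068 with TMM. The mean family sum on that scale was 313 CPM in the SnRK1-labelled line, against 166 in its wild type, and 110.4 in the S1-labelled line, against 121 in its wild type. On the same scale AT3G63210 in the SnRK1-labelled line turned to 0.0338 and AT1G22160 to 0.0622, AT5G65040 lost its call (-0.75, adjusted p = 0.229), and the difference of AT3G63210 lost it too (-0.32, adjusted p = 0.219). AT5G65040 also lost its call with only the groups compared (adjusted p = 0.0777). The other reversals were of values that were never called. In the S1-labelled line AT5G47060 turned to 0.0722 with library totals and 0.0479 with limma-voom, and with 1 library left out it ranged between -0.48 and 0.24, AT1G22160 between -0.35 and 0.28, and AT3G22550 between -1.03 and 0.10. Between the wild types AT1G22160 turned to -0.000936 and AT3G63210 to -0.025 with library totals, and AT5G65040 to -0.073 with limma-voom. There, with 1 library left out, AT1G22160 ranged between -0.21 and 0.31, AT3G63210 between -0.07 and 0.13, AT5G65040 between -0.29 and 0.48, and AT2G44670 between -0.25 and 0.0931. The number of FLZ loci called with 1 library left out ranged between 6 and 8 in the SnRK1-labelled line, 0 and 1 in the S1-labelled line, and 6 and 8 for the difference, and was 1 between the wild types. Genes called in the S1-labelled line made up 5.8% with only the groups compared, against 2.58%, and 0.74 to 4.62% with 1 library left out. Between the wild types the leave-one-out share ran from 6.44 to 15.2%. Fitting replicate numbers as a block gave 8, 1, 7 and 1 FLZ calls in the SnRK1-labelled line, the S1-labelled line, the difference and the wild types, as without it, and 3.34% of genes called in the S1-labelled line. Neither the labels nor the data establish that replicate numbers pair a line with its wild type: same-numbered deviations correlated at 0.172, -0.0274 and -0.0468 across genes in the SnRK1 comparison and at 0.062, -0.0237 and -0.0969 in the S1 comparison. Between the 2 lines, whose responses enter the test of the difference, same-numbered libraries correlated at 0.151 to 0.283, each best with its own number, which is a hint from the data and not from the design. In each of the other 3 pairs of groups 1 of 3 correlations was over 0.1. Without the length step AT3G63210 ranked above AT2G44670 in the S1-labelled line. In the SnRK1-labelled line AT3G63210 then ranked 3, AT5G47060 4, AT3G22550 5 and AT4G17670 6. Lower ranks also moved in both wild types and in the S1-labelled line. The cause of these moves was not tested. Depth limits AT4G39795, AT5G65040 and, outside the SnRK1-labelled line, AT5G47060, AT4G17670 and AT3G22550.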
